A study of Mus musculus with 11 samples.

Results

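The 43 genes listed here encode the proteins that make cholesterol and fatty acids and the factors that set their transcription: the SREBP transcription factors and their sterol sensors, the enzymes of the mevalonate and cholesterol pathways, proteins that move or export sterols, and the enzymes that build, elongate and desaturate fatty acids. Members were the listed genes found in the table of normalized expression values, which holds 11118 genes. That gave 41 members. *Abca1* and *Me1*, a sterol exporter and malic enzyme, were only in the count table, with at most 64 and 28 reads in any pool, and were not analysed further. All 41 members were above 1 CPM (the usual scaling of read counts to the size of the library) in at least 4 of the 11 pools and so entered the test with the other genes of that kind, 10951 in all.

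RNA-seq was run on cDC1s, the conventional type 1 dendritic cells that present antigen of dead tumor cells to CD8+ T cells. They came from tumors of the mouse melanoma line B16 (B16-F10 in the study), taken 10 to 15 days after injection into C57BL/6 mice of both sexes aged 6 to 14 weeks. Each pool joined tumors of 2 to 4 mice and held 5000 to 20000 sorted cells. The 3 genotypes share floxed *Xbp1* alleles (XBP1 fl/fl). Of the 4 control pools, replicates 1 to 3 were XBP1 fl/fl and replicate 4 was XBP1 fl/fl, IRE1 fl/fl, all without Cre. The 4 XBP1-deficient pools were XBP1 fl/fl with CD11c-CRE, which removes exon 2 of *Xbp1* and with it the active factor XBP1s. The 3 double-deficient pools were XBP1 fl/fl, IRE1 fl/fl with CD11c-CRE, and there IRE1, the endoplasmic reticulum stress sensor that splices *Xbp1* mRNA, is also truncated and lacks its RNase domain. The CD11c (Itgax) promoter is active in most dendritic cells and in some macrophages and other leukocytes, so the loss need not be limited to cDC1s. Control replicate 4 alone matches the floxed alleles of the double-deficient pools.

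Sterol and fatty acid synthesis are controlled by the SREBP factors. SCAP carries the SREBP precursors from the endoplasmic reticulum to the Golgi, where proteases release the active factors, and INSIG proteins hold SCAP back when sterols are plentiful. *Srebf2* encodes SREBP2, which mainly drives cholesterol genes, and *Srebf1* encodes SREBP1, of which the 1c form mainly drives fatty acid genes. XBP1s itself is known for driving genes of lipid synthesis in the liver.

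Promoter sequences are shown for 4 members, because nearly all members were below control in both lines. Their windows match the element bound by SREBP, or the core or only a part of elements bound by XBP1s and ATF6. These 4 were chosen after the matches were seen: the rule meant to choose them, a sterol regulatory element in a member with a small p, found 0 members. RefSeq windows on GRCm38.p6, from 250 bases before to 50 bases after a start site, matched 33 members. Both strands were searched for TCACNCCAC (a sterol regulatory element), CCACG (the second part of the endoplasmic reticulum stress element) and ACGTGG (the core of the unfolded protein response element). The other part of the stress element was not searched for. Each match of ACGTGG is also a match of CCACG on the opposite strand. Only bases upstream of both the RefSeq start and the GENCODE gene start are printed, 5′ to 3′ on the strand of the gene, with the matches of the motif in capitals, where CGTGG is CCACG read on the other strand. The *Hmgcs1* window (chr13:119690101-119690350, + strand) holds the sterol element, the *Insig1* (chr5:28071162-28071362, + strand) and *Sc5d* (chr9:42264301-42264550, - strand) windows hold ACGTGG, and the *Nsdhl* window (chrX:72918271-72918520, + strand) holds CCACG alone.
Hmgcs1: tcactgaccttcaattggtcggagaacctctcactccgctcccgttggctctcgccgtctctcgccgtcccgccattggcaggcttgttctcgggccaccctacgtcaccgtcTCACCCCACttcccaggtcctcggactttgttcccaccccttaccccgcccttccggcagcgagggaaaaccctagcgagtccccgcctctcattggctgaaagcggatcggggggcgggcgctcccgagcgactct
Insig1: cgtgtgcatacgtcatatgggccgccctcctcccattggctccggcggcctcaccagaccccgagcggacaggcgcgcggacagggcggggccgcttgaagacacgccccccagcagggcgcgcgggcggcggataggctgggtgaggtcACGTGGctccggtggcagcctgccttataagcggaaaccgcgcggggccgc
Nsdhl: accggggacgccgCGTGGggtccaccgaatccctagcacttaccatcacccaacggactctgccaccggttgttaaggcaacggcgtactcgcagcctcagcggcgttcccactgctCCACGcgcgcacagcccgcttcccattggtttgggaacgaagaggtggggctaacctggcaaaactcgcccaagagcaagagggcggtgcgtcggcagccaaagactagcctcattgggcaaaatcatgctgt
Sc5d: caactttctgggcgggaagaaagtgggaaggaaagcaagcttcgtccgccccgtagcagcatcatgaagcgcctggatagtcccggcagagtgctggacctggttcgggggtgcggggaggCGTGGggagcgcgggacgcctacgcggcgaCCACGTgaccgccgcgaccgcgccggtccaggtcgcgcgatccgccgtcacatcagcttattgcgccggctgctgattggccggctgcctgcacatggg

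The sterol element was found in 1 of 33 members (3.03%) against 1.44% of the 27025 genes with a window. In *Hmgcs1*, HMG-CoA synthase, it lies 137 to 129 bases upstream of the start. CCACG was found in 19 of 33 members (57.6%) against 35.5% of the 27025 genes with a window, and ACGTGG in 6 of 33 members (18.2%) against 9.4% of the 27025 genes with a window. The members with ACGTGG were *Insig1*, *Hsd17b7*, *Sc5d*, *Dhcr7*, *Acly* and *Hacd3*. The 27025 genes include many not expressed in these cells, while all members were. The share over the 10951 genes tested was not computed, so whether the higher shares are particular to these members was not tested. These are matches of letters in short windows, and binding was not measured.

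In control cDC1s the members spanned a wide range of levels. Per kilobase of exon, *Fdps* (farnesyl diphosphate synthase) was highest at 271 CPM per kilobase, followed by *Srebf2* at 156, the sterol C4-methyl oxidase *Msmo1* at 135, *Hmgcs1* at 127 and squalene epoxidase, *Sqle*, at 124. *Srebf1* was at 25.2 CPM per kilobase. The lowest were the elongase *Elovl7* at 0.318, acetyl-CoA carboxylase, *Acaca*, at 1.19 and the sterol exporter *Abcg1* at 2.03. Of the stearoyl-CoA desaturases, which make monounsaturated fatty acids, *Scd2* was at 70.2 and *Scd1* at 2.90 CPM per kilobase.

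Pools held 21089065 to 26843486 counts on genes, with medians of 24403349 in control, 23654731.5 in XBP1-deficient and 23716798 in double-deficient pools. The markers of cDC1s were present in every pool, with a summed level of 8309 to 10029 CPM for the 10 of 11 listed markers in the table. Levels of *Xbp1* were 244, 249, 254 and 271 CPM in control, 130.1, 152, 161 and 165 CPM in XBP1-deficient and 212, 236 and 179 CPM in double-deficient replicates. *Ern1*, which encodes IRE1, was at 19.0, 14.1, 13.1 and 9.82 CPM in control, 9.74, 15.6, 12.9 and 11.5 CPM in XBP1-deficient and 21.4, 17.0 and 26.0 CPM in double-deficient replicates, and counts per gene do not show which exons are present.

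Nearly all members were below control in both lines, by small amounts. In XBP1-deficient against control cDC1s, 38 of 41 members had a log2 fold change below 0, with a median of -0.30 beside 0.0050 over all 10951 genes. In double-deficient against control cDC1s the count was also 38 of 41 and the median -0.30, beside -0.0031 over all genes. These comparisons share the control pools. The members above 0 in both were *Pmvk*, *Abcg1* and *Mylip*.

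After Benjamini-Hochberg adjustment over all genes with edgeR's quasi-likelihood test, 3 of 41 members were called at an adjusted p under 0.05 in XBP1-deficient cells, *Srebf2*, *Nsdhl* and *Elovl6*, all lower, where 0.895% of all genes were called. *Elovl6* was the only member that also passed a fold change of 1.5, as 0.493% of all genes did. No member was called in double-deficient cells, where 0.356% of all genes were, and the smallest adjusted p was 0.0597 (*Nsdhl*). Without adjustment, 24 members had p under 0.05 and a lower value in XBP1-deficient cells against a background of 4.95% of all genes, and 20 did in double-deficient cells against 5.44%. The last count includes *Elovl7*, which passed the filter only through control and XBP1-deficient pools, and without it 19 of 40 members had such a p and 37 of 40 were below control. No member had p under 0.05 and a higher value in either line. All pools lay below all control pools for 12 members in XBP1-deficient cells (3.67% of all genes; 8 members with library size scaling) and for 15 in double-deficient cells (5.81% of all genes). The count of called members in XBP1-deficient cells was 0 without control replicate 1, control replicate 2, XBP1-deficient replicate 1 or XBP1-deficient replicate 3. In these fits 0.55%, 0.551%, 0.588% and 0.606% of all genes were called. The count was 1 without XBP1-deficient replicate 2 or 4, where 0.67% and 0.579% of all genes were called. Without XBP1-deficient replicate 2, 15 members had an unadjusted p under 0.05 and a lower value, as did 4.89% of all genes. In double-deficient cells 1 member was called without XBP1-deficient replicate 1 or without double-deficient replicate 2, as were 0.276% and 0.303% of all genes. With DESeq2 in place of edgeR, 7 and 10 members passed the adjusted threshold in the XBP1-deficient and double-deficient comparisons, as did 1.65% and 1.82% of all genes. With library size scaling 1 and 0 members did, and 0.667% and 0.420% of all genes, and with a replicate block 0 and 0, and 0.539% and 0.11%. In bulk RNA, fewer cells that express a gene and less RNA of it per cell cannot be told apart.

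**Figure D1:**
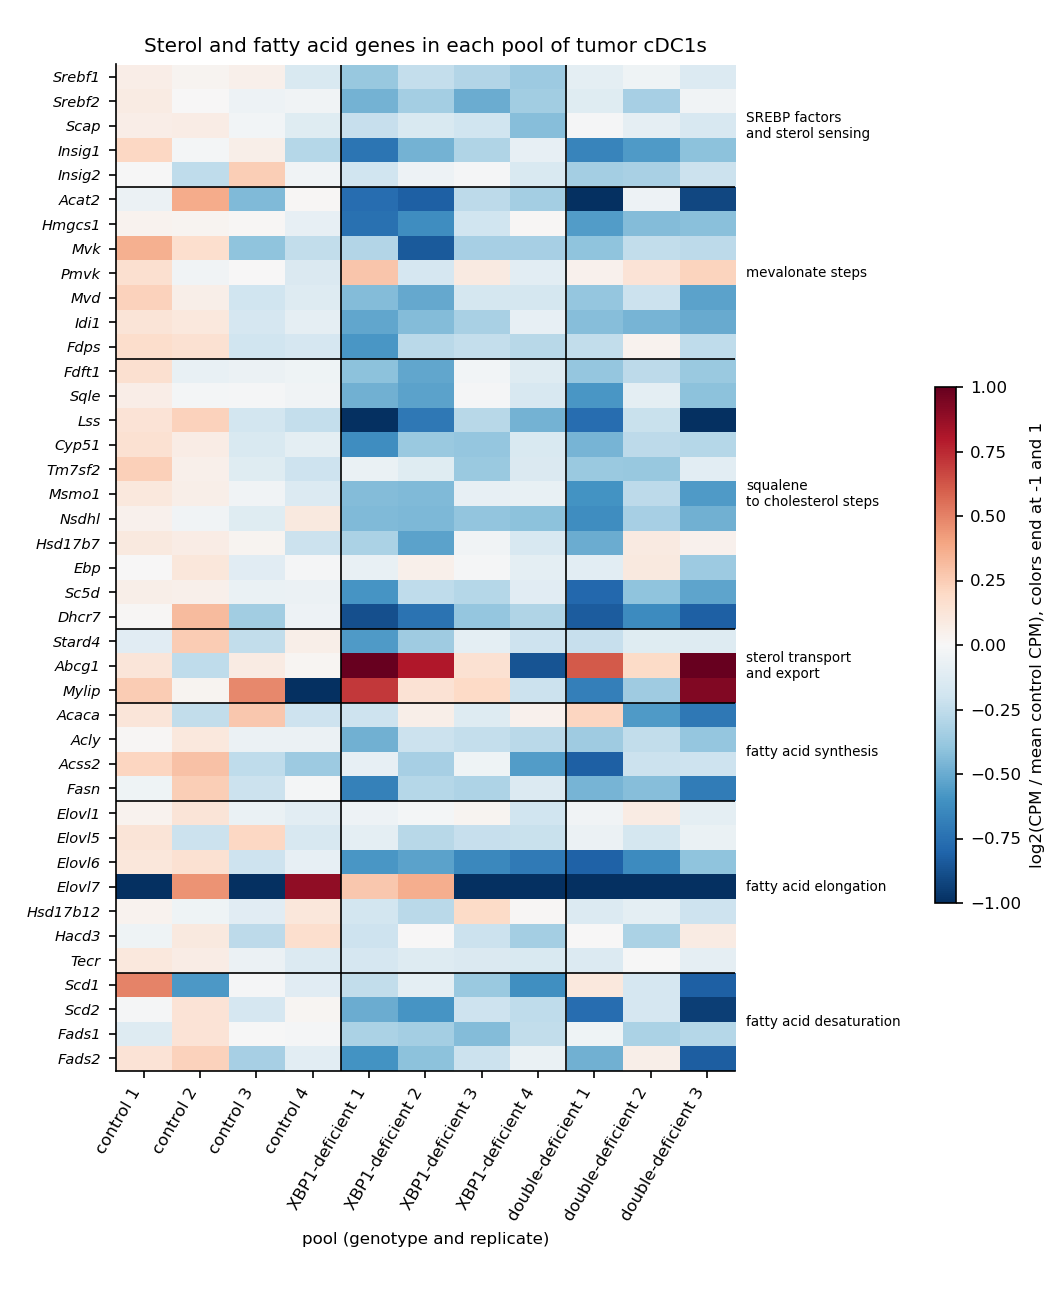
Heat map of log2 of normalized CPM over the mean control CPM for the 41 members (rows, grouped by role) in each of the 11 pools (columns); blue is below and red above the control mean, and colors end at -1 and 1. Of the 287 values in the 7 pools of both lines, 252 are below the control mean, and 14 members have at least 1 pool above it, of which *Pmvk*, *Abcg1* and *Mylip* are above it in most pools and *Elovl7* is at very low counts.

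Of the genes for the SREBP factors, *Srebf2* was called by edgeR in XBP1-deficient cells and *Srebf1* was not. *Srebf2* (chr15:82147181-82205379, + strand, GRCm38, GENCODE vM21) had levels of 837, 791, 761 and 773 CPM in control replicates 1 to 4, 571, 623, 560.3 and 622 CPM in XBP1-deficient replicates 1 to 4 and 727, 629 and 773 CPM in double-deficient replicates 1 to 3. All XBP1-deficient pools were below all controls, double-deficient replicate 2 was just above them, and double-deficient replicate 3 was within the control range. *Srebf2* fell by 24.8% in XBP1-deficient cells, a log2 fold change of -0.41 (standard error 0.0740, edgeR adjusted p = 0.0176). With a replicate block its edgeR adjusted p was 0.0900. Without control replicate 1 or 2 or XBP1-deficient replicate 1 or 3 the adjusted p from edgeR was 0.0625 to 0.0725. The log2 fold change in double-deficient cells was -0.16 (standard error 0.0800, edgeR adjusted p = 0.509), and -0.076 without double-deficient replicate 2.

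*Srebf1* (chr11:60199089-60222581, - strand) showed the same order of groups. It was at 113, 110.1, 112 and 97.1 CPM in control, 83.4, 91.7, 88.1 and 84.0 CPM in XBP1-deficient and 101, 105 and 98.2 CPM in double-deficient replicates. The XBP1-deficient pools lay below every control and every double-deficient pool, while double-deficient and control pools overlapped. Its log2 fold change was -0.32 (standard error 0.0720, edgeR adjusted p = 0.0690) in XBP1-deficient and -0.091 (standard error 0.0777, edgeR adjusted p = 0.744) in double-deficient cells, and the first passed the threshold without control replicate 4 (adjusted p = 0.0463 from edgeR) and by DESeq2 (adjusted p = 0.00654). The second was -0.14 to -0.068 when each pool was left out. *Scap*, the escort of both factors, was at 131, 132, 123 and 115 CPM in control, 107, 112, 109 and 92.8 CPM in XBP1-deficient and 124, 117 and 112 CPM in double-deficient replicates. Here too all XBP1-deficient pools lay below all controls, and the log2 fold changes were -0.25 (standard error 0.0797, edgeR adjusted p = 0.345) and -0.085 (standard error 0.0861, edgeR adjusted p = 0.795), the second of which was -0.048 without double-deficient replicate 3.

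The INSIG genes, which are sterol sensors and, for *Insig1*, a known SREBP target, were ordered differently. *Insig1* (chr5:28071363-28078662, + strand) was at 191, 164, 173 and 136 CPM in control and 100, 119.7, 135 and 157 CPM in XBP1-deficient replicates. In double-deficient replicates it was at 105, 112 and 125 CPM. The double-deficient pools were all below the controls, and XBP1-deficient replicate 4 was inside the control range. Its log2 fold change was -0.38 (standard error 0.135, edgeR adjusted p = 0.448) in XBP1-deficient and -0.54 (standard error 0.147, edgeR adjusted p = 0.181) in double-deficient cells. DESeq2 called the second (adjusted p = 0.0356). *Insig2* was at 31.6, 26.5, 37.6 and 30.8 CPM in control, 27.6, 30.5, 31.4 and 28.5 CPM in XBP1-deficient and 25.0, 25.2 and 27.2 CPM in double-deficient replicates. Its pools overlapped control in both lines, with log2 fold changes of -0.10 (standard error 0.113, edgeR adjusted p = 0.949) and -0.29 (standard error 0.123, edgeR adjusted p = 0.384), the first of which was -0.0066 without control replicate 3.

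**Figure D2:**
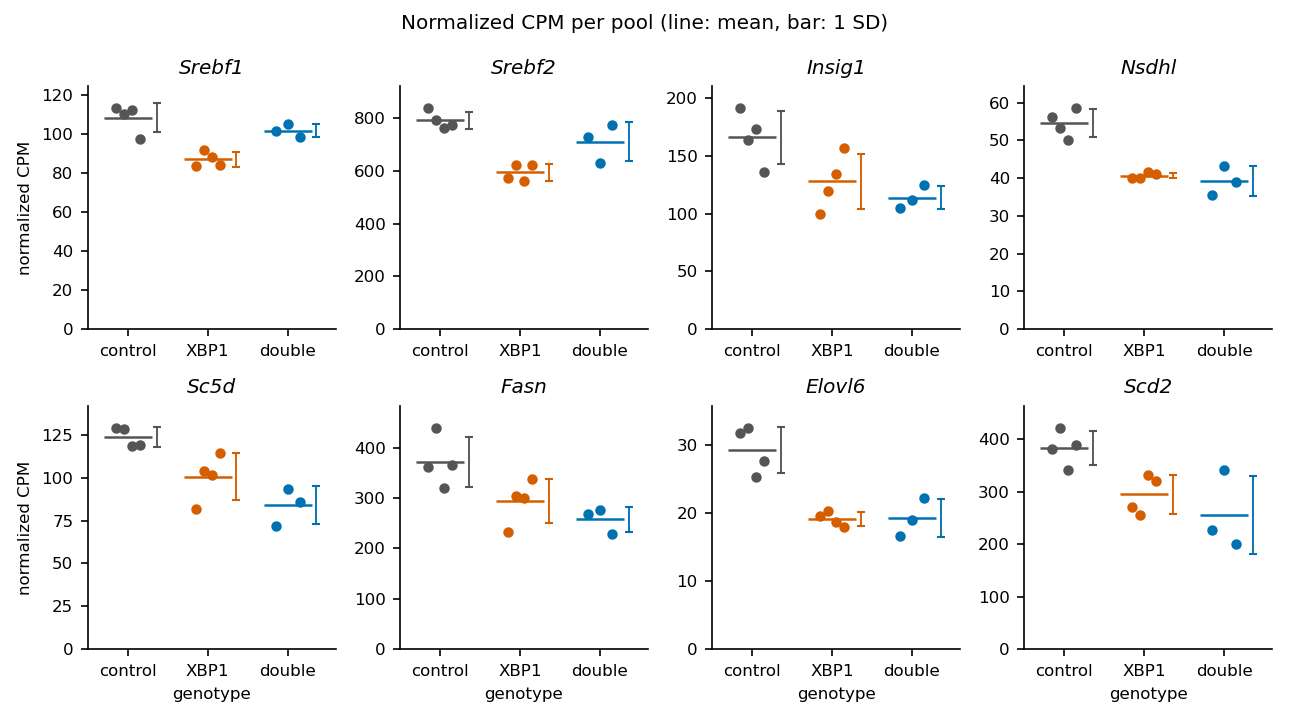
Normalized CPM (vertical axis, from 0) of 8 members in each pool of control, XBP1-deficient and double-deficient cDC1s (horizontal axis, the last pair marked XBP1 and double); points are pools, lines the group means and bars 1 SD. *Srebf1* and *Srebf2* are lowest in XBP1-deficient pools, while *Insig1*, *Sc5d*, *Fasn* and *Scd2* have their lowest group mean in double-deficient pools.

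The mevalonate steps turn acetyl-CoA into the isoprenoid precursors of sterols. Of the 7 members here, 6 were below control in each line, with medians of -0.34 and -0.37. In XBP1-deficient cells 6 and in double-deficient cells 4 had an unadjusted p under 0.05 and a lower value. Over all genes the shares were 4.95% and 5.44%. None of the 7 was called by edgeR after adjustment. DESeq2 called *Idi1* in double-deficient cells (adjusted p = 0.0499), and edgeR on only the pools of both groups called *Hmgcs1* there. *Idi1*, isopentenyl diphosphate isomerase, was at 38.8, 38.4, 31.7 and 33.5 CPM in control, 24.9, 26.4, 28.4 and 33.6 CPM in XBP1-deficient and 26.5, 25.9 and 25.1 CPM in double-deficient replicates. All double-deficient pools were below all controls, with a log2 fold change of -0.46 (standard error 0.125, edgeR adjusted p = 0.180), and XBP1-deficient replicate 4 was within the control range, with a group value of -0.33 (standard error 0.115, edgeR adjusted p = 0.419).

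*Hmgcs1* was at 444 ± 16.9 CPM (SD, n = 4) in control, 347 ± 85.8 CPM (SD, n = 4) in XBP1-deficient and 320.4 ± 16.5 CPM (SD, n = 3) in double-deficient pools. XBP1-deficient pools spread from 264 to 448 CPM, the highest of them inside the control range, and the double-deficient pools were all below control. *Fdps* was at 445, 437, 343 and 351 CPM in control, 263, 327, 334 and 325 CPM in XBP1-deficient and 332, 403 and 330.3 CPM in double-deficient replicates, so that only the XBP1-deficient pools were all below control. Acetoacetyl-CoA thiolase, *Acat2*, and mevalonate kinase, *Mvk*, varied more, with control pools from 27.8 to 48.7 CPM and from 20.7 to 34.9 CPM. The log2 fold changes were -0.52 and -0.61 for *Acat2*, -0.43 and -0.30 for *Mvk*, -0.32 and -0.37 for the mevalonate decarboxylase *Mvd*, -0.36 and -0.47 for *Hmgcs1*, and -0.34 and -0.15 for *Fdps* in the XBP1-deficient and double-deficient lines. *Pmvk*, phosphomevalonate kinase, had 0.034 and 0.14 (standard errors 0.106 and 0.115).

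From squalene to cholesterol, all 11 members were below control in each line, with medians of -0.28 and -0.35, and 8 of 11 had an unadjusted p under 0.05 in each. Over all genes 4.95% and 5.44% had such a p and a lower value. *Nsdhl* (chrX:72918557-72958514, + strand), a dehydrogenase that removes C4 methyl groups from sterols, was the member called by edgeR in XBP1-deficient cells. DESeq2 called *Nsdhl* and *Cyp51* there, and *Msmo1*, *Nsdhl*, *Sc5d* and *Dhcr7* in double-deficient cells. Its levels were 56.3, 53.3, 50.05 and 58.5 CPM in control replicates 1 to 4, 40.1, 40.0, 41.5 and 41.1 CPM in XBP1-deficient replicates 1 to 4 and 35.5, 43.2 and 39.0 CPM in double-deficient replicates 1 to 3. Every pool of both lines was below every control. *Nsdhl* fell by 25.4% in XBP1-deficient cells, with a log2 fold change of -0.42 (standard error 0.0884, edgeR adjusted p = 0.0438), and the value in double-deficient cells was -0.48 (standard error 0.0964, edgeR adjusted p = 0.0597). The call did not pass without any of the 4 control pools, any of the 4 XBP1-deficient pools or double-deficient replicate 3 (adjusted p of 0.0554 to 0.162 from edgeR), nor with library size scaling (0.126), a replicate block (0.154) or no filter on low counts (0.0785).

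*Sc5d*, sterol C5-desaturase, had levels of 129, 129, 118 and 119 CPM in control, 82.0, 104, 102 and 115 CPM in XBP1-deficient and 71.8, 93.7 and 86.0 CPM in double-deficient replicates. Both lines were fully below control. The log2 fold changes were -0.30 (standard error 0.107, edgeR adjusted p = 0.443) and -0.56 (standard error 0.117, edgeR adjusted p = 0.0673), and the second passed the threshold without XBP1-deficient replicate 1 (adjusted p = 0.0396 from edgeR). *Dhcr7*, which makes cholesterol from 7-dehydrocholesterol, had levels of 30.4, 37.6, 23.7 and 29.1 CPM in control, 16.4, 18.1, 23.0 and 24.5 CPM in XBP1-deficient and 16.9, 19.6 and 17.1 CPM in double-deficient replicates. XBP1-deficient replicate 4 was just above the lowest control, and the double-deficient pools were all below control. Its log2 fold changes were -0.56 (standard error 0.163, edgeR adjusted p = 0.238) and -0.76 (standard error 0.179, edgeR adjusted p = 0.111).

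*Cyp51*, lanosterol demethylase, was at 444, 420.5, 359 and 373 CPM in control, 259.9, 309, 305 and 359 CPM in XBP1-deficient and 289, 333 and 328 CPM in double-deficient replicates. All pools of both lines were below all controls, by a narrow margin for XBP1-deficient replicate 4, with log2 fold changes of -0.37 (standard error 0.102, edgeR adjusted p = 0.190) and -0.33 (standard error 0.111, edgeR adjusted p = 0.275). *Msmo1* was at 296, 287, 268 and 251 CPM in control, 204, 203, 260.1 and 262 CPM in XBP1-deficient and 182, 230.3 and 186 CPM in double-deficient replicates. XBP1-deficient replicates 1 and 2 were low and replicates 3 and 4 within the control range, and the log2 fold changes were -0.25 (standard error 0.1101, edgeR adjusted p = 0.646) and -0.47 (standard error 0.120, edgeR adjusted p = 0.155). *Lss*, lanosterol synthase, was at 109, 117, 87.5 and 84.1 CPM in control, 46.7, 60.5, 82.2 and 71.8 CPM in XBP1-deficient and 58.6, 85.4 and 44.0 CPM in double-deficient replicates, with log2 fold changes of -0.61 and -0.67 (standard errors 0.206 and 0.226). Double-deficient replicate 2 was inside the control range, and all other pools of the lines were below it.

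The remaining 5 enzymes of this branch were below control on average. For squalene synthase, *Fdft1*, the log2 fold changes in the XBP1-deficient and double-deficient lines were -0.26 and -0.34, and for *Sqle* -0.28 and -0.35, with all double-deficient pools of both genes below control. They were -0.25 and -0.096 for the sterone reductase *Hsd17b7*, -0.17 and -0.28 for the sterol reductase *Tm7sf2*, and -0.033 and -0.11 for the sterol isomerase *Ebp*, none with an unadjusted p under 0.05.

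**Figure D3:**
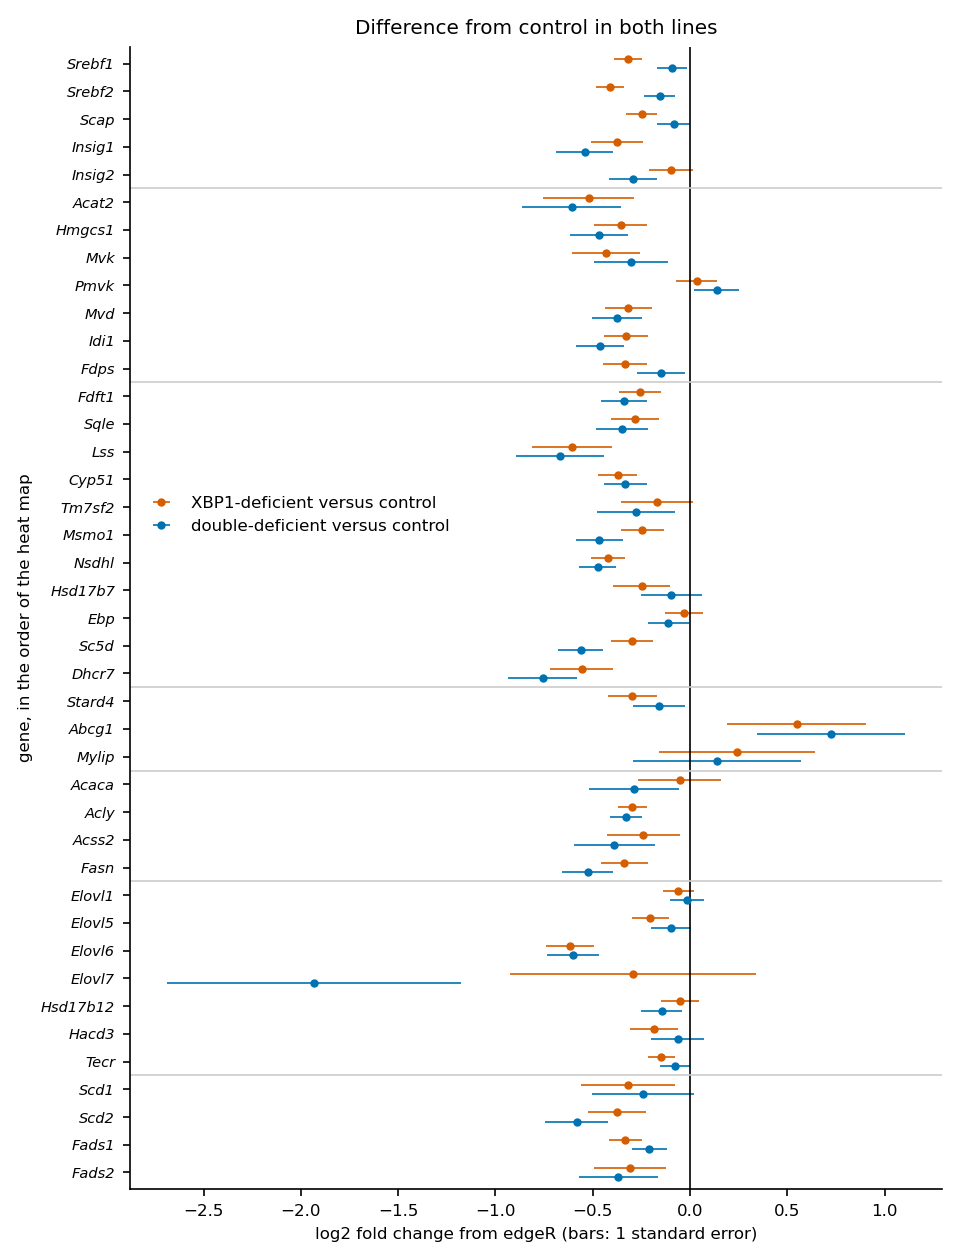
Log2 fold change from edgeR (horizontal axis) of the 41 members (vertical axis, in the order of the heat map) in XBP1-deficient and double-deficient cDC1s against control; points are estimates and bars 1 standard error. 38 points of each line lie left of 0, and *Elovl7* in double-deficient cells, at -1.93, has the widest bars.

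Of the genes for sterol transport, *Stard4*, which carries cholesterol between membranes, had log2 fold changes of -0.30 and -0.16 in the XBP1-deficient and double-deficient lines. *Abcg1*, a sterol exporter that liver X receptors induce when sterols are high, was at 15.1, 11.7, 14.7 and 14.1 CPM in control, 34.0, 24.2, 15.4 and 7.61 CPM in XBP1-deficient and 21.2, 15.8 and 31.7 CPM in double-deficient replicates. The double-deficient pools were all above control, while XBP1-deficient replicates ran from the lowest to the highest value of all pools. Its log2 fold changes were 0.55 (standard error 0.355, adjusted p = 0.833 from edgeR) and 0.72 (standard error 0.379, adjusted p = 0.521 from edgeR). *Mylip*, a ubiquitin ligase and another liver X receptor target, ranged from 2.99 to 10.6 CPM in controls alone, with log2 fold changes of 0.24 and 0.14.

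All 15 fatty acid members were below control in both lines, with medians of -0.29 and -0.29, and 5 and 6 of them had an unadjusted p under 0.05 in XBP1-deficient and double-deficient cells. Without *Elovl7*, 5 of 14 had such a p in each line and the medians were -0.27 and -0.27. Over all genes 4.95% and 5.44% had such a p and a lower value. Without double-deficient replicate 3 the median in double-deficient cells was -0.17. DESeq2 called *Acly*, *Elovl6* and *Fads1* in XBP1-deficient cells, and *Acly*, *Fasn*, *Elovl6* and *Scd2* in double-deficient cells. In fatty acid synthesis, *Acly*, ATP citrate lyase, which supplies cytosolic acetyl-CoA, was at 469, 501, 448 and 447 CPM in control, 335, 401, 395 and 387 CPM in XBP1-deficient and 364, 393 and 356 CPM in double-deficient replicates. Every pool of both lines was below every control, with log2 fold changes of -0.30 (standard error 0.0741, edgeR adjusted p = 0.121) and -0.33 (standard error 0.0805, edgeR adjusted p = 0.129). *Fasn*, fatty acid synthase, was at 361, 439, 319 and 365 CPM in control, 233, 305, 300.0 and 337 CPM in XBP1-deficient and 269, 276 and 229 CPM in double-deficient replicates. XBP1-deficient replicate 4 was inside the control range, and the double-deficient pools were all below it. The log2 fold changes of *Fasn* were -0.34 (standard error 0.121, edgeR adjusted p = 0.448) and -0.53 (standard error 0.132, edgeR adjusted p = 0.144). Those of *Acss2*, acetyl-CoA synthetase, were -0.24 and -0.39, and those of *Acaca* -0.054 and -0.29, with overlapping pools.

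Among the elongation genes 1 member stood out. *Elovl6* (chr3:129532355-129638495, + strand), which elongates palmitate to stearate, had levels of 31.7, 32.4, 25.3 and 27.6 CPM in control replicates 1 to 4, 19.6, 20.2, 18.7 and 17.9 CPM in XBP1-deficient replicates 1 to 4 and 16.7, 19.0 and 22.2 CPM in double-deficient replicates 1 to 3. All pools of both lines lay below all controls, and the XBP1-deficient pools were close together. *Elovl6* fell by 34.7% in XBP1-deficient cells, a log2 fold change of -0.62 (standard error 0.123, edgeR adjusted p = 0.0354), and the value in double-deficient cells was -0.60 (standard error 0.134, edgeR adjusted p = 0.0945). Without control replicate 1, 2 or 4 or any of the 4 XBP1-deficient pools, the adjusted p from edgeR was 0.0730 to 0.125. With a replicate block the edgeR adjusted p was 0.124 at a log2 fold change of -0.61. With library size scaling it was 0.0502 at -0.59.

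The other elongation genes were closer to control, and none had an unadjusted p under 0.05 against control except *Elovl7* in double-deficient cells. In the XBP1-deficient and double-deficient lines, *Elovl1* had log2 fold changes of -0.060 and -0.016 (standard errors 0.0789 and 0.0853), *Hsd17b12* -0.052 and -0.15, and *Tecr* -0.15 and -0.076. The last pair encode the reductases of the elongation cycle. *Elovl5*, an elongase of polyunsaturated fatty acids, had -0.21 and -0.099, and the dehydratase *Hacd3* -0.18 and -0.065. *Elovl7* was counted by only 5 to 53 reads per pool. It was above 1 CPM in control replicates 2 and 4 and XBP1-deficient replicates 1 and 2 only, which is how it entered the test, so its log2 fold change of -1.93 (standard error 0.758) in double-deficient cells is no support for the group.

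In desaturation, *Fads1*, the delta-5 desaturase of polyunsaturated fatty acids, was at 117, 140.2, 128 and 127 CPM in control, 103, 101, 94.6 and 108 CPM in XBP1-deficient and 124, 102 and 105 CPM in double-deficient replicates. Only the XBP1-deficient pools were all below control, with log2 fold changes of -0.33 (standard error 0.0846, edgeR adjusted p = 0.133) and -0.21 (standard error 0.0916, edgeR adjusted p = 0.413). *Scd2* was at 381, 421, 341 and 388 CPM in control, 271, 255, 332 and 321 CPM in XBP1-deficient and 226, 341 and 199.8 CPM in double-deficient replicates. All pools of both lines were below all controls, double-deficient replicate 2 by less than 1 CPM. The log2 fold changes of *Scd2* were -0.38 and -0.58 (standard errors 0.148 and 0.162, edgeR adjusted p = 0.521 and 0.185). It was called in double-deficient cells by DESeq2 and by edgeR without double-deficient replicate 2. With a covariate of Y-linked genes edgeR called it in both lines. *Fads2*, the delta-6 desaturase, had -0.31 and -0.37, and *Scd1* -0.32 and -0.24, with pools overlapping control in both lines.

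The direct comparison asks whether the members differ with loss of the IRE1 RNase on top of loss of XBP1. In it, 24 of 41 members were lower and 17 higher in double-deficient than in XBP1-deficient cells, with a median of -0.059. No member was called after adjustment, where 0.0731% of all genes were, and 4 had an unadjusted p under 0.05, where 5.29% of all genes did. The 4 include *Elovl7*, without which the count was 3 of 40. DESeq2 called 0 members, and 2 had an unadjusted p under 0.05 without control replicate 2, control replicate 4 or double-deficient replicate 3. Both SREBP genes were higher in every double-deficient pool than in every XBP1-deficient pool, with log2 fold changes of 0.26 (standard error 0.0795, edgeR adjusted p = 0.585) for *Srebf2* and 0.23 (standard error 0.0775, edgeR adjusted p = 0.725) for *Srebf1*. *Scap* had 0.16 (standard error 0.0858, edgeR adjusted p = 0.967). Among the sterol enzymes, 13 of 18 were lower, led by *Sc5d* with -0.26 (standard error 0.116, edgeR adjusted p = 0.931) and *Msmo1* with -0.22 (standard error 0.119, edgeR adjusted p = 0.967), while *Fdps* had 0.19 (standard error 0.121, edgeR adjusted p = 0.967). The value of *Sc5d* was -0.16 without double-deficient replicate 1, and that of *Fdps* was 0.081 without double-deficient replicate 2. With the mean level of 4 markers of mature dendritic cells as a covariate, a fit added after the data had been seen, 18 of 41 members were lower in this comparison, and the median of the sterol enzymes was 0.0082 in place of -0.074. Leaving out 1 pool moved that median to between -0.14 (double-deficient replicate 2) and -0.0029 (XBP1-deficient replicate 3). Of the 14 direct log2 fold changes followed with each pool left out, 8 moved by over 1.5 times, those of *Acsl3*, *Elovl6*, *Fdps*, *Insig1*, *Msmo1*, *Nsdhl*, *Sc5d* and *Scap*, and 2 of them changed sign. *Insig2* had -0.19 (standard error 0.122, edgeR adjusted p = 0.967), *Insig1* -0.17 (standard error 0.146, edgeR adjusted p = 0.967), which was -0.052 without XBP1-deficient replicate 4, and *Elovl7* -1.64 (standard error 0.756, edgeR adjusted p = 0.938). For *Nsdhl* and *Elovl6* the values were -0.052 (standard error 0.0958, edgeR adjusted p = 0.998) and 0.012 (standard error 0.133, edgeR adjusted p = 0.9997). What this comparison can resolve with 3 double-deficient pools was not tested.

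The sterol enzymes varied together between pools of the same genotype. Taking the mean of the 18 sterol synthesis members as log2 CPM minus the control mean, control replicates 1 to 4 were at 0.12, 0.10, -0.14 and -0.093, XBP1-deficient replicates 1 to 4 at -0.46, -0.45, -0.20 and -0.19 and double-deficient replicates 1 to 3 at -0.49, -0.21 and -0.42. XBP1-deficient replicates 1 and 2 and double-deficient replicates 1 and 3 were low, and the other pools of both lines were just below the lowest controls. The mean of the 14 fatty acid members other than *Elovl7* was 0.096, 0.049, -0.080 and -0.064 in control, -0.30, -0.23, -0.20 and -0.25 in XBP1-deficient and -0.26, -0.22 and -0.39 in double-deficient replicates. For the 5 SREBP and sensor genes it was 0.088, -0.029, 0.062 and -0.12 in control, -0.39, -0.25, -0.25 and -0.27 in XBP1-deficient and -0.24, -0.27 and -0.19 in double-deficient replicates.

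Across the 11 pools, the differences of each pool from its group mean gave a median pairwise Pearson r of 0.52 among the 18 sterol synthesis members, with 86.9% of pairs above 0. The median was -0.012 among the 14 fatty acid members other than *Elovl7* and -0.001 over all pairs of genes tested. These pools share libraries and depth across genes, so this is a description. The members closest to the mean of the other sterol enzymes were *Msmo1* (r = 0.94), *Mvd* (0.89), *Dhcr7* (0.83) and *Sqle* (0.82), and of the fatty acid genes *Fads2* (0.85) and *Scd2* (0.79). The SREBP genes did not follow it, with 0.25 for *Srebf1* and -0.18 for *Srebf2*, and *Abcg1* had -0.68. By r of log2 CPM over the same pools, the 5 genes most like *Insig1* were *Hmgcs1* (0.93), *9330133O14Rik* (0.92), *Kcnip3* (0.89), *Msantd2* (0.89) and *Idi1* (0.88). For *Scd2* they were *Otud6b* (0.94), *Acat2* (0.94), *Rassf7* (0.93), *Rtn3* (0.92) and *Msmo1* (0.92).

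Markers of mature, migratory dendritic cells had higher median sums in both lines than in control, with overlapping pools, and followed the sterol enzymes only in part. The summed level of the 5 listed markers, of which *Ccr7*, *Fscn1*, *Ccl22* and *Cd200* were tested and *Il4i1* was near 0, was 3224, 1796, 3728 and 2161 CPM in control replicates 1 to 4, 4976, 3784, 2325 and 3556 CPM in XBP1-deficient replicates 1 to 4 and 4477, 3363 and 6648 CPM in double-deficient replicates 1 to 3. XBP1-deficient replicate 1 and double-deficient replicates 1 and 3 had the highest sums and were among the 4 pools lowest in sterol enzymes. XBP1-deficient replicate 2, also among these 4, had nearly the same sum as control replicate 3. Within controls, replicate 3 had the highest sum and the lowest sterol mean. Control replicate 1 had the highest sterol mean, at a higher sum than replicates 2 and 4. All 4 tested markers were above control in both lines, with medians of 0.50 and 0.79 on the log2 scale. None was called, and 1 and 4 of them had an unadjusted p under 0.05. With the mean of these 4 markers as a covariate, 37 and 33 of 41 members were below control and 15 and 10 had an unadjusted p under 0.05 and a lower value in XBP1-deficient and double-deficient cells, as did 4.52% and 4.33% of all genes. The medians of the sterol enzymes were then -0.25 and -0.24, and those of the fatty acid members -0.18 and -0.25, beside -0.32 and -0.36 and -0.29 and -0.29 without the covariate. In double-deficient cells *Dhcr7* moved from -0.76 to -0.41 and *Fasn* from -0.53 to -0.25. Moves away from 0 there were those of *Srebf2* from -0.16 to -0.24, *Insig2* from -0.29 to -0.43 and *Insig1* from -0.54 to -0.60, among others. *Srebf2* was still called in XBP1-deficient cells, at -0.45 (edgeR adjusted p = 0.0170), where 0.594% of all genes were called. *Nsdhl* and *Elovl6* were not called in that fit, at -0.39 and -0.61, beside -0.42 and -0.62 without the covariate. The summed markers of macrophages and monocytes were between 480.1 and 719 CPM and those of cDC2s between 27.7 and 73.7 CPM in every pool. Of the 10 macrophage and monocyte markers, 9 were above control in XBP1-deficient and 7 in double-deficient cells, with median log2 fold changes of 0.72 and 0.20, 1 and 0 of them with an unadjusted p under 0.05. All 4 markers of plasmacytoid dendritic cells were below control in both lines, with medians of -0.39 and -0.62 and 0 and 2 with an unadjusted p under 0.05. Their sums were 110.3 to 127 CPM in control, 90.1 to 113 CPM in XBP1-deficient and 95.2 to 107 CPM in double-deficient pools. Those of fibroblasts and endothelium were 8.27 to 14.95 CPM in control, 8.51 to 29.2 CPM in XBP1-deficient and 9.08 to 12.0 CPM in double-deficient pools. Of the 3 of these tested, 2 were above control in XBP1-deficient and 1 in double-deficient cells, with medians of 1.39 and -0.74. In XBP1-deficient cells 1 of them had a higher value with an unadjusted p under 0.05, and in double-deficient cells 0 did. Summed markers of T and NK cells, B cells, neutrophils and adipocytes were at or below 15.8, 1.99, 1.56 and 4.86 CPM in every pool. Those of melanoma cells were 8.96 to 60.9 CPM in control, 12.2 to 64.7 CPM in XBP1-deficient and 8.74 to 11.02 CPM in double-deficient pools, where 3 of the 4 tested were below control with a median of -1.86 over the 4, and 2 had a lower and 1 a higher value with an unadjusted p under 0.05. The part of these other cell types in the results was not tested. Beside these marker counts, 4.95% of all genes had such a p with a lower and 2.67% with a higher value in XBP1-deficient cells. In double-deficient cells these shares were 5.44% and 5.73%. *Xist*, expressed from the inactive X chromosome of female cells, was at 34.6, 61.6, 15.5 and 35.6 CPM in control, 24.2, 49.2, 70.2 and 16.2 CPM in XBP1-deficient and 0, 48.0 and 0.435 CPM in double-deficient replicates, with double-deficient replicates 1 and 3 at or near 0 and every other pool at 15.5 CPM or more. With the mean of 4 Y-linked genes as a covariate, also added after the data had been seen, 6 and 4 members were called in the XBP1-deficient and double-deficient comparisons, as were 1.1% and 0.995% of all genes.

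**Figure D4:**
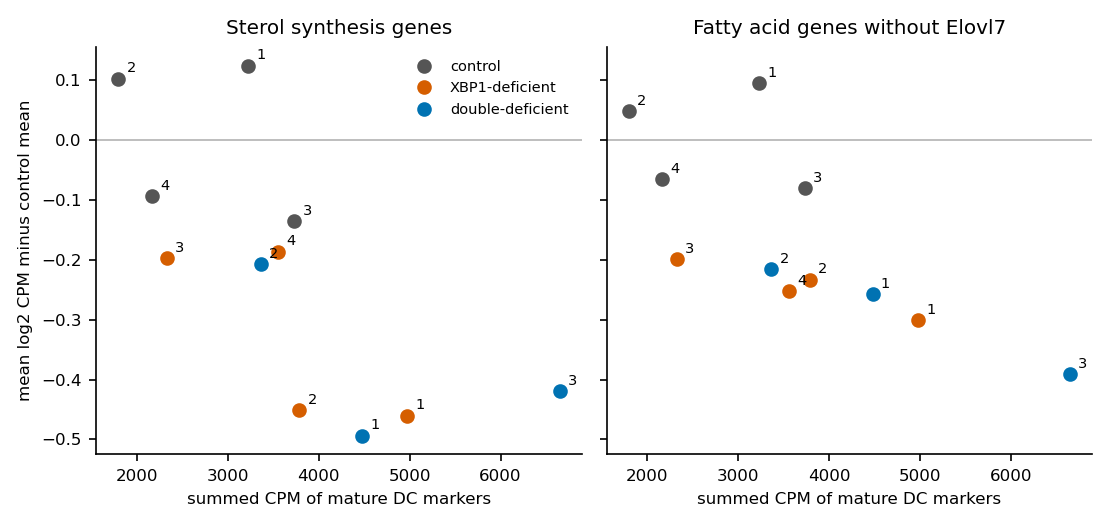
Mean of the 18 sterol synthesis members (left) and of the 14 fatty acid members other than *Elovl7* (right) as log2 CPM minus the control mean (vertical axis) against the summed CPM of mature dendritic cell markers (horizontal axis) in the 11 pools; colors are genotypes and numbers replicates. Pools of both lines lie below all controls in each panel, and double-deficient replicate 3, with the highest sum of 6648 CPM, is the lowest in the right panel.

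Further genes of the pathway came from a list of which 44 are reported here, 43 in the count table and 34 tested. In XBP1-deficient cells 22 of 34 were below control, with a median of -0.066, and 4 with a lower and 2 with a higher value had an unadjusted p under 0.05, as did 4.95% and 2.67% of all genes. In double-deficient cells 23 of 34 were below control, with a median of -0.040, and 4 with a lower and 1 with a higher value had an unadjusted p under 0.05, as did 5.44% and 5.73% of all genes. None of the 34 was called by the edgeR test used throughout. The smallest p in both lines was that of *Aacs*, acetoacetyl-CoA synthetase, which supplies precursors of sterols and fatty acids from ketone bodies. *Aacs* had levels of 210.5, 221, 178 and 187 CPM in control, 121, 129, 156 and 153 CPM in XBP1-deficient and 141, 154 and 118 CPM in double-deficient replicates. All pools of both lines were below all controls. Its log2 fold changes were -0.51 (standard error 0.112, edgeR adjusted p = 0.0549) and -0.53 (standard error 0.122, edgeR adjusted p = 0.102). The first passed the threshold without double-deficient replicate 2 or 3 (lowest edgeR adjusted p = 0.0406). For *Aacs* in XBP1-deficient cells, limma voom and a newer edgeR fit gave 0.0474 and 0.0485 as adjusted p, and edgeR with the Y-linked covariate gave 0.0118 and 0.0319 in the XBP1-deficient and double-deficient lines. DESeq2 gave adjusted p-values of 0.00209 and 0.00715 for *Aacs*. With the mature marker covariate its log2 fold changes were -0.39 and -0.29 (edgeR adjusted p = 0.116 and 0.596). *Lpin1*, a phosphatidate phosphatase of lipid synthesis, had -0.44 (standard error 0.160, edgeR adjusted p = 0.465) in XBP1-deficient and -0.44 (standard error 0.174, edgeR adjusted p = 0.351) in double-deficient cells, the latter -0.25 without double-deficient replicate 2. *Fabp5*, a fatty acid carrier, had 0.68 (standard error 0.256, edgeR adjusted p = 0.487) in XBP1-deficient cells, and *Acsl3*, an acyl-CoA synthetase, had -0.72 (standard error 0.268, edgeR adjusted p = 0.328) in double-deficient cells. Without XBP1-deficient replicate 1 the value of *Fabp5* was 0.42, and without double-deficient replicate 1 that of *Acsl3* was -0.46. With the mature marker covariate they were 0.34 and -0.31. In the direct comparison 1 gene had an unadjusted p under 0.05, *Erlin2*, a membrane protein that takes part in sterol-dependent protein degradation, at -0.24. Next were *Acsl3* at -0.44, which was -0.19 without double-deficient replicate 1 and -0.22 with the mature marker covariate, and the lysosomal cholesterol transporter *Npc1* at -0.18.

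Of the 18 sterol synthesis members, 12 are in the lists of XBP1s targets or of transcripts cut by IRE1 (RIDD, regulated IRE1-dependent decay) that the study took from the literature. Their medians were -0.31 and -0.34 in XBP1-deficient and double-deficient cells. The 6 in neither list, *Acat2*, *Hmgcs1*, *Mvd*, *Lss*, *Ebp* and *Sc5d*, had -0.34 and -0.52. Of the fatty acid members only *Fads1* and *Fads2* are in these lists, as RIDD transcripts.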

How the data were processed

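RNA of 11 pools of sorted tumor cDC1s was amplified with SMART-seq v4 and sequenced as single-end reads. Per the submitters' processing notes and the study's methods, reads were trimmed with Trimmomatic 0.39, checked with FastQC 0.11.8, mapped to mm10 with STAR 2.7.3a and counted per gene with HTSeqCount; annotation and strand setting are not given in the sources used here, so reads shared by overlapping genes or near-identical copies cannot be assigned. The deposited raw counts are whole reads per gene. The deposited log2 table holds log2 CPM that the authors normalized with limma 3.42.2, and over 10951 genes it differed from voom values computed here by at most 0.000691. It served only to choose members.

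The counts were tested in R 4.3.3 with edgeR 4.0.16 (TMM scaling, quasi-likelihood test, 1 mean for each of 3 genotypes, all 11 pools in 1 fit), keeping genes above 1 CPM in at least 4 pools. Benjamini-Hochberg adjustment ran over all 10951 genes, a call was an adjusted p under 0.05, and the fold limit was 1.5. CPM in the text are TMM-normalized, with a prior count of 2 for log2 CPM. Group means are given with the SD over pools. Counts of pools of 1 group differed beyond sampling noise (chi-square per degree of freedom 19.9 to 61.5), so each was 1 replicate. P-values set a difference of group means against the spread between pools, estimated in 1 fit of all 3 genotypes with information shared over genes. Each pool joined 2 to 4 mice, so the spread between single mice is not seen. Depth was 21089065 to 26843486 counts per pool.

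Members, gene lists and tests were chosen with earlier results of these data known. Values in every pool were given for the SREBP and sensor genes and for the 8 members with the smallest p in each comparison with control, and fold changes with adjusted p also for the 8 of the direct comparison; of the other pathway genes, the 3 with the smallest p were named. Pool values of further members were added after their values had been seen. Some genes of the pathway list are not reported here. Gene positions are from GENCODE vM21 and promoters from RefSeq. The test was checked on simulated counts of the XBP1-deficient comparison, where 16, 32, 41 and 49 of 50 genes changed 1.5-, 2-, 3- and 4-fold were called, with 4 of 10751 unchanged genes. Changes under 1.5-fold, as in most members, and changes in the 3 double-deficient pools were not simulated. Alternatives were library size scaling, DESeq2 1.42.0, limma 3.58.1 voom, a newer edgeR fit, no filter, only the pools of both groups compared, a replicate block and leaving out each pool. The covariates for mature dendritic cell markers and Y-linked genes were chosen after seeing the data.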

Additional observations from a re-analysis of the deposited data

Results flagged for a closer look

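In 82 groups of 4 pools (41 members in control and in XBP1-deficient cells), 3 had a pool far from the other 3 by Dixon's test, and chance gives about 1 in 20 such groups. *Mvk* was at 15.3 CPM in XBP1-deficient replicate 2, with the others at 21.7 to 22.2 CPM. *Fdps* was at 263 CPM in XBP1-deficient replicate 1, with the others at 325 to 334 CPM. *Fdft1* was at 121 CPM in control replicate 1, with the others at 103 to 105 CPM. The 3 double-deficient pools were too few for this check.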

How the results depend on the processing

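In every alternative 33 to 39 members were below control in the comparisons with control, while the number called depended on the setting. *Elovl7* did not enter the test in some alternatives, so these counts are not always out of 41. In XBP1-deficient cells the 3 called members became 1 with library size scaling, 7 with DESeq2, 0 with the replicate block, 0 to 3 when each pool was left out, 1 with the mature marker covariate and 6 with the Y-linked covariate. In the same order, 0.667%, 1.65%, 0.539%, 0.55% to 1%, 0.594% and 1.1% of all genes were called. The 24 members with an unadjusted p under 0.05 became 15 to 25 when each pool was left out and 15 with the mature marker covariate. Such a p with a lower value was found in 4.05% to 5.2% and in 4.52% of all genes. In double-deficient cells the 0 called members became 10 with DESeq2, as were 1.82% of all genes. With only the pools of both groups 1 was called, as were 0.206% of all genes. The count was 0 to 1 when each pool was left out and 4 with the Y-linked covariate, where 0.156% to 0.303% and 0.995% of all genes were called. The 20 in these cells with an unadjusted p under 0.05 became 10 with the mature marker covariate, where 4.33% of all genes had such a p and a lower value. The median of the fatty acid members there was -0.31 to -0.17 when each pool was left out. In the direct comparison the 4 members with an unadjusted p under 0.05 became 2 with only the pools of both groups, 2 with the replicate block and 2 to 5 when each pool was left out. The direct log2 fold change of *Elovl6* was -0.021 with library size scaling, -0.015 with the replicate block and -0.10 to 0.11 when each pool was left out. That of *Nsdhl* was -0.13 to 0.017 when each pool was left out. The 12 members with all XBP1-deficient pools below all controls became 8 with library size scaling. The causes of these changes were not tested. The labels do not say whether pools with the same replicate number belong together, and this was not settled here. Between XBP1-deficient and control, the mean correlation of deviations was 0.098 for the same number and -0.033 for other numbers. It was 0.0035 and -0.0012 between double-deficient and control, and -0.22 and 0.074 between both lines. Deviations of same-numbered pools correlated at 0.042 to 0.13 between XBP1-deficient and control, -0.020 to 0.027 between double-deficient and control and -0.26 to -0.14 between both lines, and 2 of 4, 0 of 3 and 0 of 3 pools correlated best with their own number. *Elovl7* had 5 to 53 reads per pool, and what depth limits for the other members was not tested.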
